A study of Mus musculus with 6 samples.

Results

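Ion channels and ion transporters decide how a heart cell charges, discharges and handles calcium, and 67 genes that encode them were examined in the transcriptome of embryonic mouse hearts with reduced Nkx2-5. The members are the protein-coding genes in the authors' table of changed genes that carry the Gene Ontology term for ion transport and none of 9 terms for heart, vessel, muscle contraction, actin or transcription factor function, with Slc4a1 and Chrng left out. They make up 67 of the 1492 protein-coding genes listed, and of the 71 listed genes with the ion transport term. The term does not mark every channel or carrier, so that some listed genes of these families, such as Slc1a1, are not members. From the gene names, 10 members were placed with sodium, 19 with potassium, 7 with calcium, 7 with chloride and 24 with other ions, mostly metals and the unselective cation channels.

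Hearts were taken at E11.5 from an Nkx2-5 hypomorphic line on the C57BL/6 background. The 3 hypomorphic hearts have low, not absent, expression of Nkx2-5, the homeobox transcription factor of the cardiac lineage, and the 3 control hearts came from their littermates and are labelled WT. The alleles of each heart are not given in the labels, and the study's methods name, for genotyping, an Nkx2-5-gfp line and the line Nkx2-5-IRES-Cre without saying whether a control heart carried one of them. Total RNA of whole hearts was used, so that fewer cells of a type and less RNA per cell cannot be told apart.

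Each gene has 4 values in the table, the authors' mean of raw reads and their mean of normalized log2 values for either group. Because single hearts are not given, the sequencing depth and the spread within a group are unknown, no test between the groups was run here, and each value below is an authors' mean without an error. "Lower" and "higher" refer to hypomorphic hearts and to the difference of the authors' normalized group means. Every listed gene had passed the authors' AC test on reads and changed by at least 1.5-fold, so being listed is not a finding about the members. Nkx2-5 itself is not analysed here, so the labels could not be checked against it. Of 12 cardiomyocyte markers, 2 were listed, Myl7 as higher and Nppa as lower, and the other 10 could not be examined because the table holds changed genes only.

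In the heart, sodium and calcium channels carry the current that starts each beat, potassium channels end it, and the HCN channels let the pacemaker cells drift towards the next one. Pore-forming subunits make the channel, auxiliary subunits tune it, carriers and pumps keep the gradients, and metal transporters supply iron, zinc and manganese to the cell. Nkx2-5 is known for its part in forming the conduction system and the working muscle of the chambers.

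Of the 67 members, 37 were lower (55.2%) and 30 were higher, beside 58.0% lower and 42.0% higher among all listed protein-coding genes. The median difference of normalized means was -0.64 on the log2 scale for the members and -0.63 for all listed protein-coding genes. Members were thus spread over both directions in about the proportions of the table. The differences ran from -2.35 for Trpv5, an epithelial calcium channel with few reads in these hearts, to 2.06 for Scn4b, a sodium channel subunit. The members nearest to the limit for listing, 0.585 on this scale, were Grik1 at 0.60 and Cacna2d2 at 0.61 among the higher genes and Slc38a3 at -0.61 among the lower ones, and genes just outside it are not in the list. By at least 2-fold, 10 members were lower (background 17.9%) and 13 were higher (background 14.6%).

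The scaling between the groups moved nearly all listed genes alike. The normalized difference exceeded the log2 ratio of raw means by a median of 0.47 over all listed protein-coding genes, equal to a factor of 1.38 on the hypomorphic reads. On the ratio of raw means, all 37 lower members stayed past 1.5-fold in the same direction, whereas 9 of the 30 higher members did. Of the 627 higher genes among all listed protein-coding genes, 166 did. As shares of all 1492 listed protein-coding genes, 58.1% were lower and 11.1% higher past 1.5-fold on this scale. The scaling fixes the count of lower members, since all 865 listed lower protein-coding genes passed 1.5-fold on raw means. Nothing is read from that count for the members. The 9 higher members were Scn4b, Hcn4, Kcnn4, Kcnh3, Atp4b, Ano2, Slc5a2, Slc5a11 and Slc30a10, of which Atp4b, Slc5a2 and Slc5a11 had fewer than 50 reads in either group. The other 21 higher members depend on the factor for their place in the list.

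**Figure D1:**
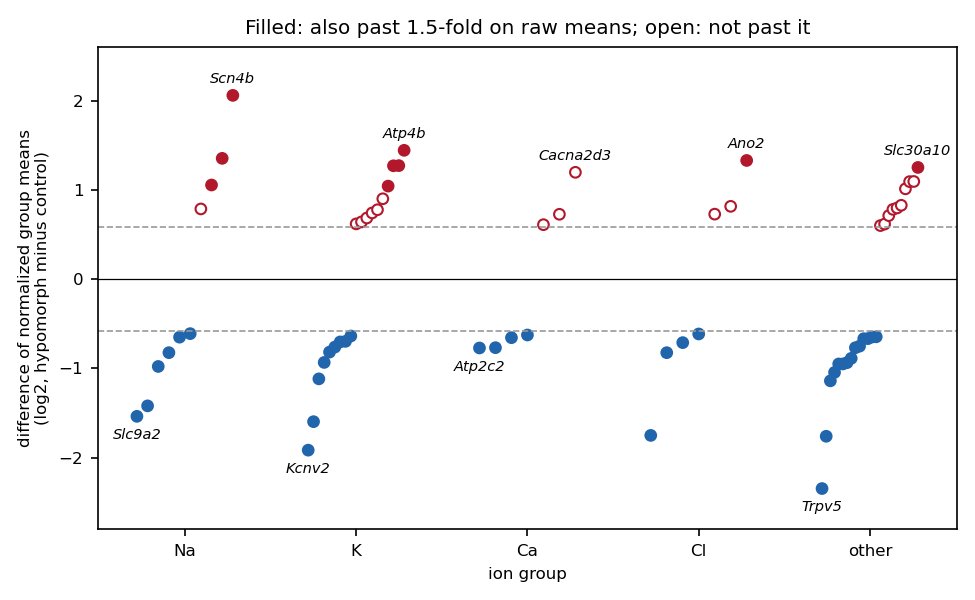
Difference of the authors' normalized group means (log2, hypomorph minus control, vertical axis) for each of the 67 genes, by ion group (horizontal axis), with 1 point per gene and dashed lines at 1.5-fold. Filled points also pass 1.5-fold on raw means in the same direction, which all 37 lower genes (blue) and 9 of the 30 higher genes (red) do; Scn4b at 2.06 is the highest point and Trpv5 at -2.35 the lowest.

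The K group is the largest and was divided almost evenly, with 9 genes lower and 10 higher. Among its pore-forming subunits, 4 voltage-gated ones and both inward rectifiers were lower. The higher ones included the voltage-gated Kcnh3, Kcnh7 and Kcnq3, the pacemaker channels Hcn3 and Hcn4 and the calcium-activated Kcnn4.

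Hcn4, the main pacemaker channel of the sinus node, was by far the most read member of the K group. It had 7019 raw reads in control hearts and 12426 in hypomorphic hearts, a raw ratio of 1.77 and a normalized difference of 1.27. Its exonic level was 1848 reads per kb in control and 3272 in hypomorphic hearts, against 27.0 and 34.5 for Hcn3. Hcn4 lies on chromosome 9 of mm9 from 58671319 to 58708762 (ENSMUSG00000032338).

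Hcn3, another channel of the family, rested more on the normalization. It had 112 raw reads in control hearts and 143 in hypomorphic hearts, a normalized difference of 0.78, and did not pass 1.5-fold on raw means. Exons of Hcn3 overlap those of Pklr on the opposite strand, the pyruvate kinase of red cells and liver, which the table lists at 2745 raw reads in control hearts and 8757 in hypomorphic hearts. The counting is not stated to use strand, so that reads of the pair cannot be told apart and the value of Hcn3 is uncertain.

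Kcnd2, which encodes the Kv4.2 channel of the transient outward current, had the largest negative difference of the K group among members with more than 100 reads. It had 650 raw reads in control hearts and 156 in hypomorphic hearts, a control mean 4.16 times the hypomorphic one, with a normalized difference of -1.60. Kcnd2 lies on chromosome 6 from 21165503 to 21679805. Kcna4, which encodes Kv1.4, another channel of the transient outward current, had 629 and 256 raw reads and a normalized difference of -0.82. Both of these genes were lower, beside 58.0% of all listed protein-coding genes, and nothing is read about the current from 2 genes. Of the subunits that bind Kv4 channels, Kcnip4 was lower at -0.76 and Kcnip1, with more reads, was higher at 0.90. Kcnd3 and Kcnip2 are not analysed here.

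The 2 inward rectifiers, which hold the resting potential of muscle and nerve cells, were also lower. Kcnj12 (Kir2.2) had 472 raw reads in control hearts and 206 in hypomorphic hearts, a normalized difference of -0.70. Kcnj4 (Kir2.3) had 247 and 90.9 raw reads and a normalized difference of -0.93. Kcnj2, Kcnj3 and Kcnj5, further inward rectifiers of the heart, are not analysed here.

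The modifier subunits Kcng1 and Kcnv2, which form no channel of their own and alter the gating of others, were lower at -1.12 and -1.92, with 154 against 55.9 and 53.2 against 10.7 raw reads. Kcnh3 and Kcnh7, of the ether-a-go-go family, were higher at 1.04 and 0.62, and Kcnq3, a subunit of the M current, was higher at 0.64. Of these 3, Kcnh3 alone passed 1.5-fold on raw means, with 39.9 reads in control hearts and 61.9 in hypomorphic hearts. Exons of Kcnh7 overlap those of Gca on the opposite strand.

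Among the 4 auxiliary subunits of potassium channels 3 were lower and 1 was higher. Kcnmb4, a beta subunit of the large calcium-activated channel, had 778 raw reads in control hearts and 363 in hypomorphic hearts (-0.64). Kcnip4, a calcium sensor that binds Kv4 channels, stood at -0.76 with 60.3 and 24.8 reads, and Kcne4 at -0.70 with 38.7 and 21.3 reads. Kcne4 was under 1.5-fold, at -0.39, when the median factor of the table was applied to its raw means. Kcnip1, a second Kv4-binding sensor, went the other way, with 2846 reads in control hearts and 3650 in hypomorphic hearts (0.90), under 1.5-fold on raw means. Atp4a and Atp4b, the subunits of the proton and potassium pump of the stomach, were higher at 0.74 and 1.44, from 56.4 to 68.5 and from 7.33 to 14.4 reads.

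**Figure D2:**
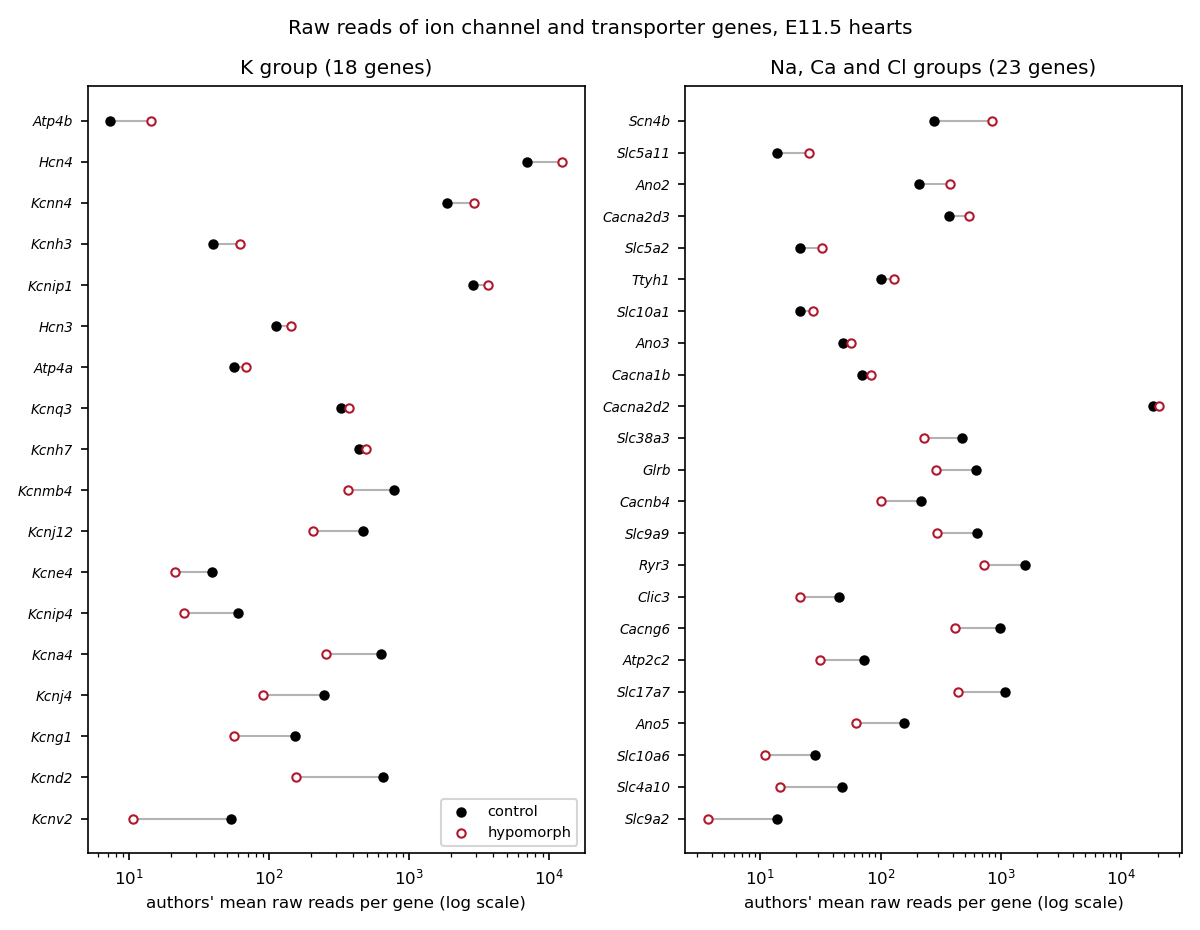
Authors' mean raw reads per gene (horizontal log axis) in control (black) and hypomorphic hearts (open red) for genes of the K group (left) and of the Na, Ca and Cl groups (right), ordered by the normalized difference; a line joins the 2 means of a gene, and no error can be drawn. Hcn4 is the rightmost gene of the K panel, at 7019 and 12426 reads, and Cacna2d2 that of the other panel, at 18459 and 20706 reads.

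The Na group held the highest member. Scn4b, the beta-4 subunit that modulates voltage-gated sodium channels, had 277 raw reads in control hearts and 850 in hypomorphic hearts, a raw ratio of 3.07 and a normalized difference of 2.06. Of the 1492 listed protein-coding genes, 20 had a larger normalized difference. Scn4b lies on chromosome 9 from 44946520 to 44962235 (ENSMUSG00000046480).

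The other 9 members of the Na group are carriers placed with sodium from their gene names, and 6 of them were lower. Slc17a7, the vesicular glutamate transporter VGLUT1, had 1088 raw reads in control hearts and 439 in hypomorphic hearts (-0.82). Slc9a9, a sodium and proton exchanger of endosomes, had 632 and 292 reads (-0.65), and Slc38a3, a glutamine carrier, had 471 and 228 reads (-0.61). Slc38a3 lay just under 1.5-fold, at -0.58, with the median factor of the table. Slc9a2, Slc4a10 and Slc10a6 were lower at -1.54, -1.42 and -0.98, but with at most 47.8 raw reads in either group. The 3 higher carriers, Slc5a11 at 1.35, Slc5a2 at 1.05 and Slc10a1 at 0.79, had at most 32.5 raw reads. Few reads thus stand behind the extremes among these carriers.

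In the Ca group 4 genes were lower and 3 higher. The lower genes were Atp2c2, a pump of the secretory pathway, at -0.77, Cacng6 and Cacnb4, the gamma-6 and beta-4 subunits of voltage-gated calcium channels, at -0.77 and -0.63, and Ryr3, a calcium release channel, at -0.66. Cacng6 had 982 raw reads in control hearts and 417 in hypomorphic hearts, and Ryr3 had 1583 and 723. Exons of Ryr3 overlap those of Aven on the opposite strand.

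Cacna2d2, the alpha-2-delta-2 subunit, was the second most read of all members per length, at 3058 reads per kb of exon in control and 3430 in hypomorphic hearts. With 18459 and 20706 raw reads, a raw ratio of 1.12 and a normalized difference of 0.61, its place in the list rests on the factor between the groups. Cacna1b, the pore of the N-type calcium channel, was higher at 0.73 with 69.5 and 82.6 reads. Cacna2d3, the alpha-2-delta-3 subunit, was higher at 1.20 with 371 and 540 reads, while its raw log2 ratio was 0.54. None of the 3 higher genes of this group passed 1.5-fold on raw means.

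The Cl group held 4 lower and 3 higher genes. Among the lower genes, Glrb, the beta subunit of the glycine receptor, had 615 raw reads in control hearts and 290 in hypomorphic hearts (-0.61). Clic3 stood at -0.71 with 45.1 and 21.2 reads.

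The anoctamins, a family of calcium-activated chloride channels and lipid scramblases, lay in both directions. Ano5 was lower at -0.82 with 156 and 62.1 reads, whereas Ano2 was higher at 1.33 with 209 and 375 reads and Ano3 at 0.73 with 49.0 and 57.0 reads. Ano2 passed 1.5-fold on raw means, with a log2 ratio of 0.84, and Ano3 did not. Ttyh1, of the tweety family, was higher at 0.82 with 100 reads in control hearts and 129 in hypomorphic hearts.

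Receptor channels opened by a transmitter, taken across the Cl and other groups, were mostly lower, 9 of 11, beside 58.0% of all listed protein-coding genes. Besides Glrb they included the AMPA receptor subunits Gria1 (662 and 297 raw reads, -0.67) and Gria2 (50 and 11 reads, -1.76), the nicotinic subunits Chrna7 (182 and 67.9 reads, -0.94) and Chrna5 (-0.67), and the ATP-gated channels P2rx5 (-0.65) and P2rx6 (-0.65). The 2 higher ones, Grik1 at 0.60 and Chrnb2 at 0.80, stayed under 1.5-fold on raw means. All 11 had at most 752 raw reads. Over the whole table lower genes had fewer reads than higher ones by median, so 58.0% is not the share at this level of reads. Exons of P2rx6 overlap those of Slc7a4 on the opposite strand, which is itself listed as lower, at 509 and 221 reads.

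The term for synapse was attached to 11 members, of which 9 were lower, beside 58.0% of all listed protein-coding genes. Of the 56 members without it, 28 were lower. This count shares genes with that of the receptor channels above, Gria2 and the 2 higher genes Grik1 and Chrnb2 among them. It is therefore not a separate result. Of 16 markers of neurons and neural crest, 4 were listed, Elavl3 as lower and Dcx, Sox10 and Th as higher, and their summed raw reads were 451 in control and 522 in hypomorphic hearts. None of these 4 was at 0, the other 12 could not be examined, and their part in the receptor values was not tested.

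The other cation channels were lower too, all 3 by more than 2-fold (background 17.9%), though few reads stand behind Mcoln2 and Trpv5. Trpm5, the cation channel of taste cells, had 191 raw reads in control hearts and 61.5 in hypomorphic hearts (-1.14), Mcoln2, a channel of endosomes and lysosomes, had 38.2 and 13.4 (-1.04), and Trpv5 had 13 and 2 (-2.35). Trpv5, though a calcium channel, was placed with the other ions in the grouping by gene names and is not counted in the Ca group. Exons of Trpm5 overlap those of Tssc4 on the opposite strand. Mcoln2 is known from immune cells, and of 8 macrophage markers 3 were listed, Lyz1, Lyz2 and Emr1, all 3 lower, with summed raw reads of 4541 in control and 538 in hypomorphic hearts. None was at 0, and their part in the value of Mcoln2 was not tested.

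**Figure D3:**
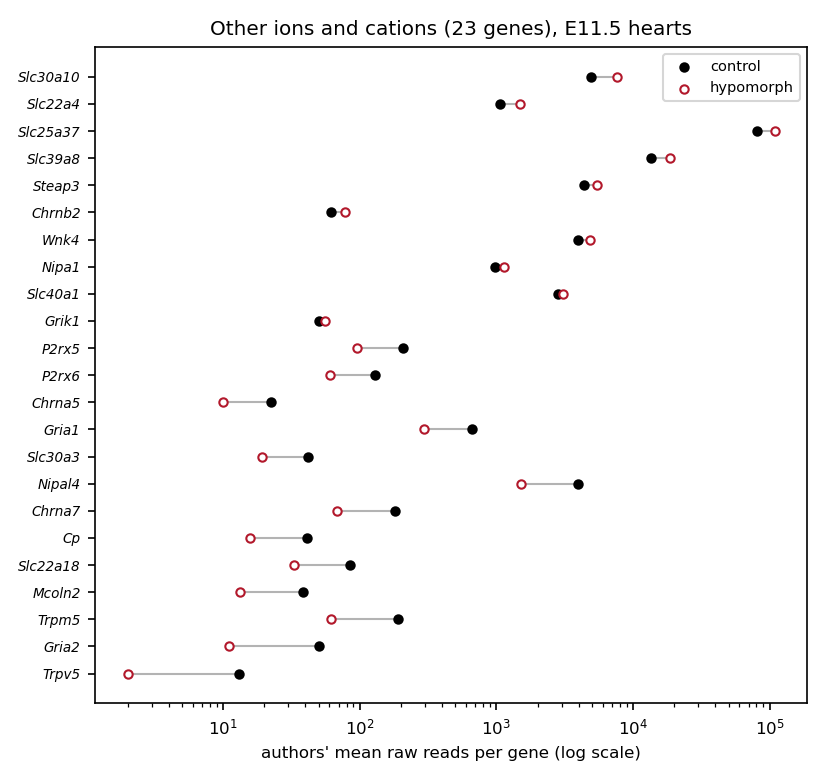
Authors' mean raw reads per gene (horizontal log axis) in control (black) and hypomorphic hearts (open red) for genes of other ions and cations, ordered by the normalized difference, with a line joining the 2 means of a gene and no error available. The higher genes at the top, apart from Chrnb2 and Grik1, lie to the right, up to Slc25a37 at 81312 and 108632 reads, while most lower genes lie to the left, with Nipal4 at 3930 and 1524 reads the exception.

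Of the 9 metal transporters, 6 were higher, beside 42.0% of all listed protein-coding genes. Most of them were much read, and 7 of the 9 reached 1000 reads, 6 of these higher and 1 lower. Among all listed protein-coding genes that reached 1000 reads, 273 of 434 were higher. The 42.0% is therefore not the share for genes read this often, and nothing is read about metal transporters from 9 genes. Slc25a37 (mitoferrin 1), which brings iron into mitochondria for heme synthesis, was the most read member of all, with 81312 raw reads in control hearts and 108632 in hypomorphic hearts. Its normalized difference was 1.09 and its raw ratio 1.34. Slc25a37 lies on chromosome 14 from 69859908 to 69903160.

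Steap3, the iron reductase of endosomes, had 4340 raw reads in control hearts and 5434 in hypomorphic hearts (0.83), and Slc40a1, the iron exporter ferroportin, had 2801 and 3095 (0.62). Slc39a8, an importer of zinc and manganese, had 13525 and 18772 reads (1.01), and Slc30a10, a manganese exporter, had 4936 and 7608 (1.25). Nipa1, of a family of magnesium transporters, had 971 and 1139 reads (0.71). Of these 6 genes, Slc30a10 alone passed 1.5-fold on raw means. The 3 lower metal genes were Cp, the copper-carrying iron oxidase ceruloplasmin, with 41.0 and 15.8 reads (-0.95), Slc30a3, a vesicular zinc carrier, at -0.75, and Nipal4, a relative of Nipa1, with 3930 and 1524 reads (-0.89). Nipal4 was the most read of all lower members.

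The remaining members of the group for other ions are Slc22a4, a carrier of organic cations, with 1056 and 1484 reads (1.09), its relative Slc22a18 with 84.6 and 32.9 reads (-0.95), and Wnk4, a kinase that controls salt transporters, with 3975 and 4854 reads (0.78). Of 12 genes of iron handling, 8 were listed, 7 as higher (background 42.0%) and Cp as lower. The 7 higher iron genes all reached 1000 reads, a level at which 273 of 434 listed protein-coding genes were higher. None of the 7 passed 1.5-fold on raw means, beside 166 of the 627 higher genes among all listed protein-coding genes. The non-members among the 7 higher iron genes were Tfrc (0.62), Fech (0.97), Alas2 (1.05) and Fth1 (0.72). Of these, Tfrc, Fech and Alas2 are also on the erythroid list below. The members Slc25a37, Slc40a1 and Steap3 were already counted with the metal genes. The iron list was written with earlier results of these data known, so its count is not a separate result.

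Red cells use several of these proteins, Kcnn4, their calcium-activated potassium channel, among them. Kcnn4 had 1872 raw reads in control hearts and 2930 in hypomorphic hearts, a raw ratio of 1.56 and a normalized difference of 1.27. All 24 genes of an erythroid list, chosen with earlier results of these data known, were listed, all 24 as higher, from 0.62 to 1.67, and none was at 0. Their summed raw reads were 5874824 in control and 8680549 in hypomorphic hearts, a ratio of 1.48. The raw ratios of Kcnn4 and of the 6 higher metal genes lay between 1.11 and 1.56. The part of the erythroid genes in these values was not tested.

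The 2 scales differed by more for some genes than for others. The offset, which is the normalized difference minus the log2 ratio of raw means, would be nearly the same for every gene with ample reads if the hearts of each group were alike. If the normalized values are means of logs, it is larger where reads were spread less evenly over the control hearts than over the hypomorphic hearts. Over all listed protein-coding genes its median was 0.47 (quartiles 0.44 and 0.50), and 13.6% of them exceeded 0.55, a limit chosen after the values were seen. Of the erythroid list 22 of 24 genes exceeded it, with a range from 0.49 to 0.69.

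Among the members 5 of 67 exceeded 0.55, a smaller share than that of all listed protein-coding genes, and nothing is read from it about a cell type. They were Slc25a37 at 0.67, Cacna2d3 at 0.66, Slc30a10 at 0.63, Kcnn4 at 0.62 and Slc22a4 at 0.60, and Kcnip1 and Slc39a8 followed at 0.54. Scn4b, Hcn4 and Cacna2d2 had offsets of 0.44, 0.45 and 0.44, below the median of the table. Kcne4, with few reads, had the lowest offset of all members, 0.16. The other 62 members had a median offset of 0.46.

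**Figure D4:**
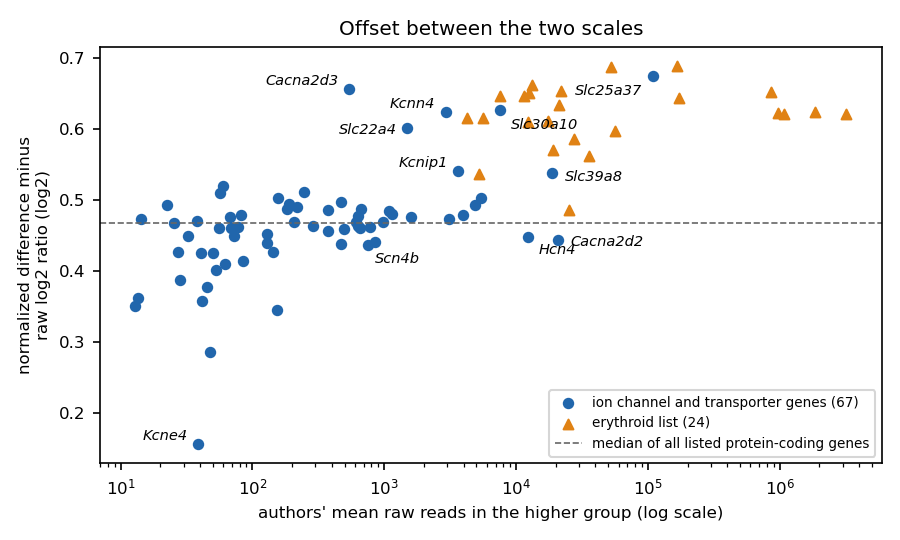
Offset (normalized difference minus raw log2 ratio, log2, vertical axis) against the authors' mean raw reads in the group where a gene is higher (horizontal log axis) for the 67 genes (blue circles) and the 24 genes of the erythroid list (orange triangles), with the median of the table as a dashed line. Slc25a37, Cacna2d3, Slc30a10, Kcnn4 and Slc22a4 lie at 0.60 to 0.67, and Scn4b and Hcn4 lie at 0.44 and 0.45.

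Reads differed between the directions as well. In the group where a gene was higher, the lower members had a median of 156 raw reads and the higher members 434, beside 142 and 513 over all listed protein-coding genes. At least 1000 reads were found for 3 of the 37 lower members, Nipal4, Ryr3 and Slc17a7, and for 12 of the 30 higher members. Over all listed protein-coding genes, these counts were 161 of 865 lower and 273 of 627 higher genes, so the contrast is one of the whole table. In 22 members at least 1 group had fewer than 50 reads. Exons of 16 members overlap those of another annotated gene, in 15 of them on the opposite strand and in 8 of them a protein-coding gene (Ano3, Cp and Slc5a2 besides those already given), and their reads are uncertain to that extent, as for Cacna2d2 and Slc30a10, which overlap noncoding genes.

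**Figure D5:**
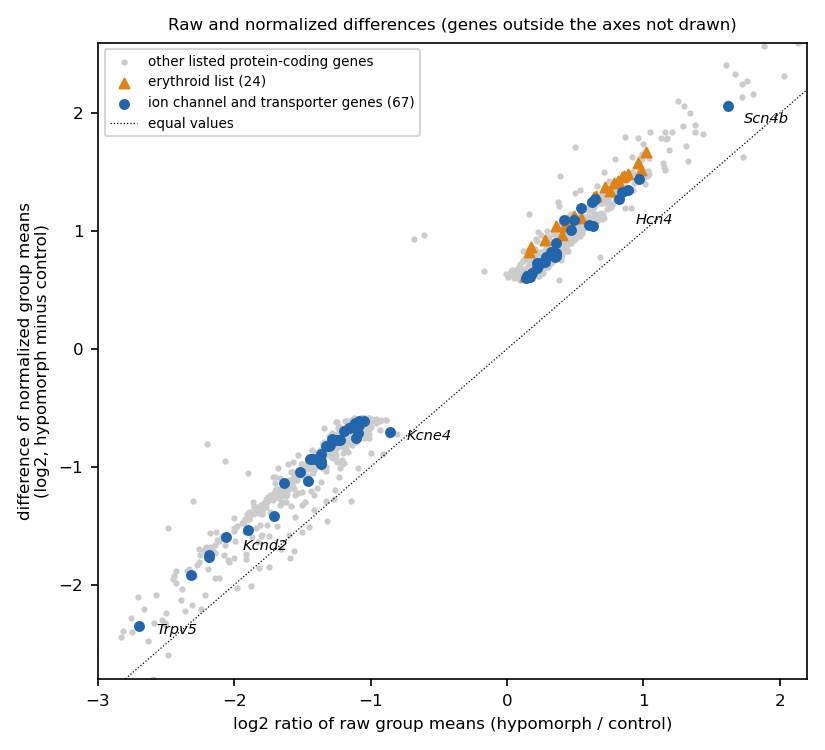
Difference of normalized group means (log2, vertical axis) against the log2 ratio of raw group means (horizontal axis) for the 67 genes (blue), the erythroid list (orange triangles) and the other listed protein-coding genes (grey), with a dotted line where both are equal. Nearly all genes lie above the line, by a median of 0.47, so that lower genes are further from 0 on the raw axis and higher genes nearer to it.

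To place the members in the electrical program of the heart, a list of 38 genes of cardiac currents, calcium handling and gap junctions was set beside the table. Of these 13 were listed, 9 lower and 4 higher, a share of lower genes (69.2%) near the 58.0% of all listed protein-coding genes, and the other 25, with Cacna1c, Kcnh2, Kcnq1, Ryr2 and Slc8a1 as examples, are not analysed here. Of the 8 that are members, Kcnd2, Kcna4, Kcnj12 and Kcne4 were lower, and Scn4b, Hcn4 and Cacna2d2 were among the higher ones.

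The 5 that are not members were all lower. Pln, the inhibitor of the calcium pump of the sarcoplasmic reticulum, had 58680 raw reads in control hearts and 22582 in hypomorphic hearts (-0.90), and Casq2, the calcium store protein, had 7178 and 3390 (-0.61). The gap junction genes Gja5 and Gjd3 stood at -0.62 and -0.63, and Fxyd1, a regulator of the sodium pump that carries the ion transport term but was left out by the rule, had 8922 and 3651 reads (-0.82). Of 18 markers of atrial, inflow and conduction muscle 5 were listed, Myl7 (0.63), Isl1 (1.14) and Hcn4 as higher and Nppa (-0.66) and Gja5 as lower. The other 13 could not be examined, and the part of these markers in the value of Hcn4 was not tested.

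Some members are neighbours in the genome. Gria2 and Glrb lie next to each other on chromosome 3 of mm9, from 80488858 to 80606713 and from 80647521 to 80717582, 40.8 kb apart with no protein-coding gene between them, and both were lower. Trpm5 and Slc22a18, both lower, lie 379 kb apart on chromosome 7, at 150255058 to 150280547 and 150659626 to 150685239, with 2 protein-coding genes between them. In the other 5 pairs of members within 1000 kb of each other, 1 pair shared a direction, Hcn3 and Chrnb2, both higher, and 4 did not, Cacna2d2 and its neighbour Slc38a3 among them.

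The promoters of the members were read for the core of the NKX2-5 binding site, TNAAGTG, because Nkx2-5 is the gene reduced in these hearts, and for the GATA motifs AGATAA and TGATAA, because GATA factors act in both heart and red cells. Windows from 250 bases before to 50 after an annotated start were taken from RefSeq on GRCm38.p6, a later build than that of the reads, and 48 of the 67 members had one. On either strand, TNAAGTG was found in 2 of these 48 members (4.17%), beside 13.0% of all genes with a window. A GATA motif was found in 9 of the 48 (18.8%), beside 20.9% of all genes with a window. It was in 5 of the 27 lower members (18.52%) and 4 of the 21 higher members (19.05%) with a window. Neither share of the members exceeded that of all genes, and a match is a run of letters, not a site shown to be bound.

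The 2 members with the NKX2-5 core were Cp, which was lower, and Slc39a8, which was higher. The 250 bases before a start of Slc39a8 (chr3:135825029-135825278, plus strand) hold 2 matches on the minus strand, in capitals in the first line below and shown because Cp had a single one. The match of Cp spans its start (chr3:19957238-19957264, plus strand). GATA motifs were also found in Ano2, which was higher, and in Chrna5, Kcnip4, Slc22a18, Slc4a10 and Trpv5, which were lower. Those matches are not printed, and the printed lines mark no trait of higher genes. The lines for GATA motifs give the higher metal genes that had one, with the motif in capitals, and each sequence is written along the strand of its gene. That of Slc39a8 belongs to a second start (chr3:135825617-135825642, plus strand), that of Steap3 lies at chr1:120271110-120271135 on the minus strand, and that of Slc30a10 at chr1:185454633-185454658 on the plus strand.
Slc39a8, NKX2-5 core: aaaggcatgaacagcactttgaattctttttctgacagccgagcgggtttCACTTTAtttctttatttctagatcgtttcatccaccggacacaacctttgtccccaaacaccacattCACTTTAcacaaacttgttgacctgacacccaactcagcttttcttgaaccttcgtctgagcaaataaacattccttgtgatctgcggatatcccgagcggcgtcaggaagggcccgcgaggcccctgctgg
Cp, NKX2-5 core: cttctggtttCACTTTAttgcatcgtg
Slc39a8, GATA motif: cctccccttcTTATCTctaaagggtg
Steap3, GATA motif: ccggagagtgTTATCTccctccagtt
Slc30a10, GATA motif: gcctaggtccTTATCAgcggcataca
Scn4b, Hcn4 and Kcnd2, each with 1 window, had no match to either motif in these letters.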

How the data were processed

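E11.5 hearts, 3 control and 3 hypomorphic, were sequenced by the authors on a Genome Analyzer IIx after TruSeq library preparation. Per the labels, CASAVA 1.4 and TopHat were used with mm9, and the study counted reads on RefSeq genes in Avadis NGS. The deposited table holds the genes past the authors' AC test at 1.5-fold. Its raw values are the authors' mean estimated counts per gene before normalization, and its normalized values are log2 means per group that the authors deposited, set against a per-gene baseline by a scaling that is not given in the sources used here. Columns with the authors' own fold changes and direction were not used.

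Here, differences of normalized means, ratios of raw means and their offset were computed with Python 3.11.15, numpy 2.4.6, pandas 2.3.3 and matplotlib 3.10.9. The steps were run on simulated hearts with a set factor of 1.40, and 1.40 was recovered. The simulated normalized values were made with that same factor, so its recovery was fixed in advance. The simulation had no spread between hearts beyond counting and no selection by the AC test, so it checks the computation only. Positions and exon lengths came from GENCODE M1 (mm9), in which all 67 members were placed. Without values per heart, no test, interval or block was possible, and depth per heart is unknown.

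In each ion group, the 3 largest falls and 3 largest rises with at least 50 reads were to be described, with members on the cardiac and iron lists, which gave 35 genes, and the others in brief. Slc1a1, Pklr, Slc7a4 and other overlapped genes, and the offset, were chosen after their values were seen. Members, lists and rules were chosen with earlier results of these data known. A few members are counted but not reported by name here.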

Additional observations from a re-analysis of the deposited data

How the results depend on the processing

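The number of lower members, 37, was 37 without scaling and 35 with the median factor. It was 37 with a factor from the total of the listed protein-coding genes without globin genes. At a fold of 2 it was 10, and with at least 100 reads 21. The number of higher members, 30, was 9 without scaling, 9 with that total, 30 with the median factor, 13 at a fold of 2 and 20 with at least 100 reads. With every gene of the ion transport term it was 39 lower and 32 higher. Leaving out members with an offset above 0.55, added after the data were seen, gave 37 and 25. By ion, the higher genes without scaling were 3 for Na, 4 for K, 0 for Ca, 1 for Cl and 1 for the others, and the lower genes did not change in number. Factors of 1.38 (median) and 1.001 (total without globin genes) were applied to hypomorphic reads, so a smaller factor was bound to lose higher genes. That total covers only genes listed as changed, so 1.001 is no estimate of sequencing depth. For 35 described genes, 140 values were computed. Of these, 108 kept their direction past 1.5-fold, 32 kept it but fell under 1.5-fold and 0 changed sign. The settings are not independent. No scaling, the factor of 1.001 and 1 read added without scaling each gave 25 and 10. The median factor, taken from the authors' own normalized values, gave 33 and 2. Raw log2 ratios were at most -0.859 for lower members and above 0 for higher ones, so a change of sign was hardly possible. Values among the 108 could still be smaller or larger than the main value. No paired analysis was possible because single hearts have no values, and for the same reason no heart could be left out. Genes that were not listed cannot be gained by any setting.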
